A study of Mus musculus with 2 samples.

Results

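A long non-coding RNA (lncRNA) gene was taken into the set described here when at least 2 of its annotated isoforms each reached 0.5 FPKM in either library. Of 10944 lncRNA gene names in the annotated table, 227 met this rule, and 28 of them were set aside by name: names starting with Snhg or Mir, names ending in os, and 8 well-known genes such as Malat1 and Neat1. This left 199 genes with 769 listed isoforms, of which 483 reached the threshold. The genes were thus chosen by the measured FPKM of both libraries, so the levels and shares below are a description, with no test.

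The libraries were made from total RNA of mouse spleen cells after depletion of ribosomal RNA, 1 library per group. The CIA group had collagen-induced arthritis, a joint inflammation provoked by immunization with type II collagen, and the healthy group had no treatment. Both sample titles name day 40, while the CIA treatment text places sacrifice 42 days past first immunization. The labels name neither strain, age nor sex, nor how many mice were pooled. Every difference below is one between 2 libraries, has no replicate check, and does not separate the conditions from other differences between these samples. The levels are FPKM, fragments per kilobase of transcript and 1000000 fragments, which divide by length, so that isoforms and genes of different length can be set side by side. The sequencing depth is unknown.

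The isoforms of a lncRNA gene arise from alternative promoters, alternative splicing, introns that stay in the RNA, and alternative 3′ ends. Since a lncRNA acts through its own sequence and structure, or only through its transcription, isoforms of 1 gene can differ in the binding sites, hosted small RNAs and antisense overlaps they carry. In the spleen, lncRNA genes are transcribed in lymphocytes, myeloid cells, erythroid precursors and stromal cells, which a library of the whole organ mixes.

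The share of an isoform is its percentage of the FPKM summed over all annotated isoforms of its gene in the same library. A share is not affected by the scaling of a library. The leading isoform is the one with the highest share, and the share moved is the sum of the absolute share differences between the libraries divided by 2, in percentage points. The leading isoform differed between the libraries in 71 of the 199 genes (35.7%). Among all 530 genes with 2 or more listed isoforms, 1 past the threshold and a sum above 0 in both libraries, it differed in 21.3%, a value that shares the rule's own measurements and is given as background only. At least 20 points of share moved in 90 of the 199 genes, beside 33.2% of the 530. Across the 199 genes the share moved ranged from 0.127 to 100 points with a median of 17.2, and 67 genes had moved by less than 10 points.

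**Figure D1:**
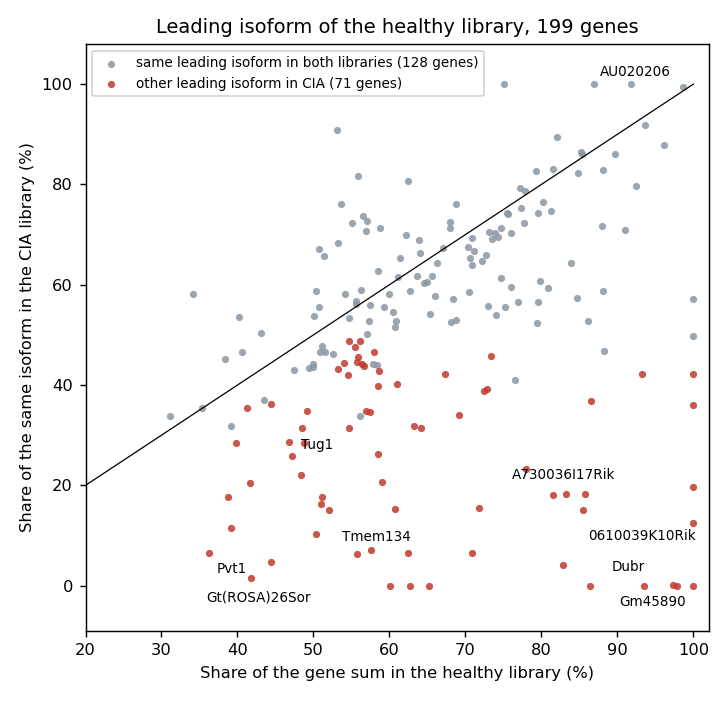
Each point is 1 of the 199 genes; the x axis gives the share (%) of the isoform that leads in the healthy library and the y axis the share (%) of that same isoform in the CIA library, with the line of equal shares. The 128 genes with the same leading isoform lie mostly near the line, and the 71 genes with another leading isoform in CIA lie below it, down to 0% for Gm45890.

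Sequences are shown for 4 genes that exchanged their leading isoform, each at 1 point where the isoforms differ; Dubr and Gt(ROSA)26Sor isoforms also differ elsewhere. They are spliced RNA as DNA letters, 5′ to 3′, from the GENCODE M21 transcripts on GRCm38. For 0610039K10Rik the 3′ ends of both isoforms are given (chr2:163645762-163645801, plus strand), and the capital marks the only base that differs. For the other 3 genes 30 bases on each side of the point where the isoforms part or join are given, and the capitals mark the bases after that point. In Tug1 (chr11:3643150-3644801, minus strand) and Dubr (chr16:50726969-50727921, minus strand) one isoform splices there and the other reads on into the intron, whose first bases are then in capitals. In Gt(ROSA)26Sor (chr6:113071406-113077203, minus strand) both isoforms splice into the same exon, in capitals, from first exons that overlap but differ in start and donor site.
0610039K10Rik-202: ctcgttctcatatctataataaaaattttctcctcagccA
0610039K10Rik-201: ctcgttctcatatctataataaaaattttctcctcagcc
Tug1-203: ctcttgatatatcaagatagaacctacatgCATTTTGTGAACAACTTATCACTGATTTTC
Tug1-201: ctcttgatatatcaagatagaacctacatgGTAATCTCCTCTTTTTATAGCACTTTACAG
Dubr-204: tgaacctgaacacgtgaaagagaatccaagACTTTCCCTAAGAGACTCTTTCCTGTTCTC
Dubr-202: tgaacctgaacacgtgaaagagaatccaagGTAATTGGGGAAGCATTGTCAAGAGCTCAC
Gt(ROSA)26Sor-203: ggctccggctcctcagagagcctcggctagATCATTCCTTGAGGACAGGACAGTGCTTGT
Gt(ROSA)26Sor-201: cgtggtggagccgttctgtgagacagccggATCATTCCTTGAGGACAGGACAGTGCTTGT

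Dubr, a lncRNA of chromosome 16 known for its part in muscle cell differentiation, had the third largest share moved, 97.2 points. Its sum was 5.65 FPKM in CIA and 2.73 FPKM in healthy. Dubr-204, the 4-exon isoform, stood at 0.00361 FPKM in CIA and 2.65 FPKM in healthy, where it made up 97.3% of the sum. Dubr-202, which reads on past the junction printed above and ends in a later intron of Dubr-204, with 2896 bases in all, stood at 2.73 FPKM in CIA and was listed at 0 in healthy. Dubr-205 (1.52 FPKM in CIA) and Dubr-201 (0.85 FPKM in CIA) were also listed at 0 in healthy, and Dubr-203 stood at 0.54 FPKM in CIA and 0.0740 FPKM in healthy. The healthy library thus held almost only Dubr-204, and the CIA library held the 4 other isoforms.

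Tug1, a broadly expressed lncRNA required for male fertility in mice, had nearly the same sum in both libraries, 26.7 FPKM in CIA and 27.9 FPKM in healthy. Within it, Tug1-203, with 3 exons, stood at 6.90 FPKM in CIA and 13.2 FPKM in healthy, which were 25.8% and 47.1% of the sum. Tug1-201, which keeps the last intron of Tug1-203 (the read-through sequence above), stood at 10.6 FPKM in CIA and 6.80 FPKM in healthy. Both start within 6 bases of each other and share 76.1% of their joint exonic bases. The upstream 1-exon Tug1-205 stood at 6.03 FPKM in CIA and 7.95 FPKM in healthy. The minor Tug1-204 (2.38 FPKM) and Tug1-202 (0.851 FPKM) were above 0 in CIA only. The share moved was 27.3 points. By fragments (FPKM multiplied by spliced length), the order of such long and short isoforms can differ from that by FPKM, and under that measure 54 of the 199 genes differed in the leading isoform. Of the 71 genes that differed by FPKM, 40 also differed by fragments, among them Tug1 and all 12 genes with the most share moved.

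Gt(ROSA)26Sor, the ubiquitously transcribed locus used for the insertion of transgenes in mice, was chosen here after its values were seen. Its sum was 8.02 FPKM in CIA and 12.5 FPKM in healthy. Gt(ROSA)26Sor-203, whose first exon starts and ends more upstream, stood at 0.117 FPKM in CIA and 5.24 FPKM in healthy. Gt(ROSA)26Sor-201, whose start lies 123 bases downstream, stood at 6.40 FPKM in CIA and 4.76 FPKM in healthy, and Gt(ROSA)26Sor-204 at 1.49 FPKM and 2.55 FPKM. The healthy lead of Gt(ROSA)26Sor-203 was narrow (41.8% against 37.9%), whereas Gt(ROSA)26Sor-201 held 79.9% in CIA. By fragments, Gt(ROSA)26Sor-201 led in both libraries, with 89.2% in CIA and 49.6% in healthy, so the change of lead was lost under that measure.

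**Figure D2:**
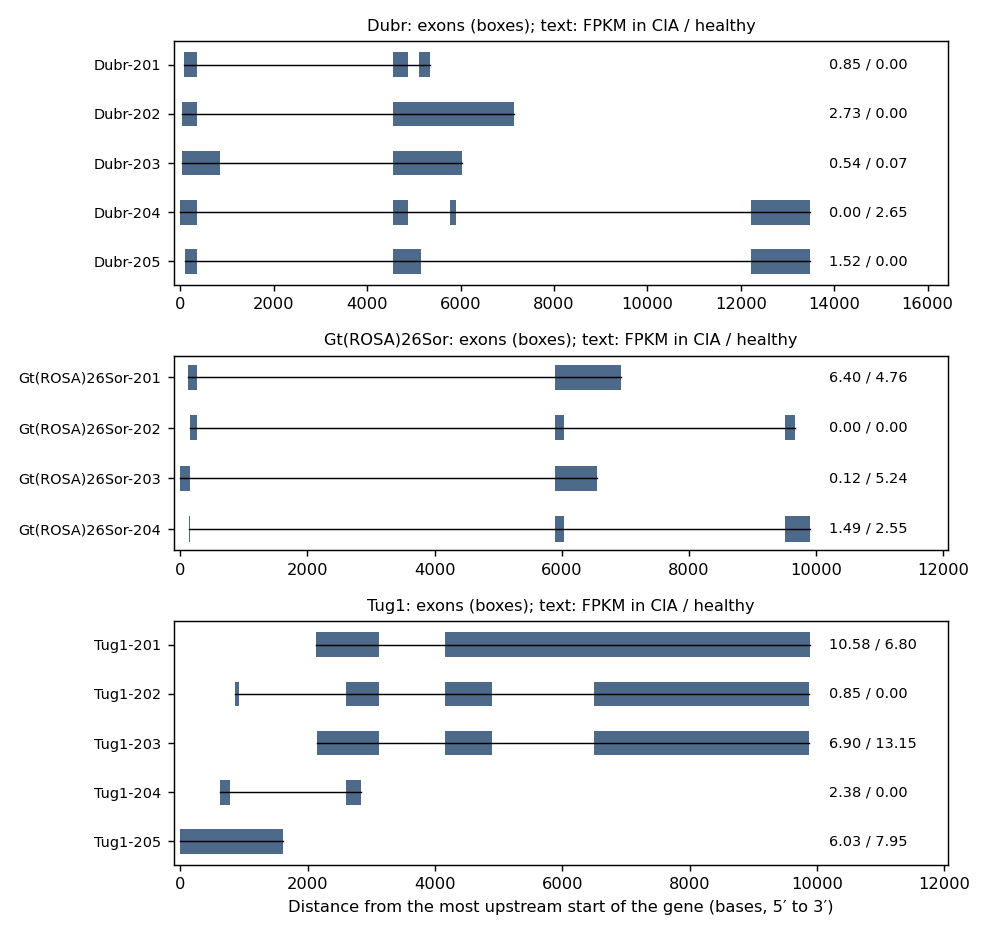
Exons (boxes) and introns (lines) of the annotated isoforms of Dubr, Gt(ROSA)26Sor and Tug1, drawn to scale along the distance in bases from the most upstream start of each gene, with the FPKM in CIA and in healthy beside each isoform. Dubr-202 and Tug1-201 end in or contain sequence that is intron in the healthy library's leading isoforms, Dubr-204 and Tug1-203.

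0610039K10Rik, a 1-exon antisense transcript of chromosome 2 that overlaps an exon of Serinc3 on the other strand, had nearly equal sums, 5.64 FPKM in CIA and 5.36 FPKM in healthy. 0610039K10Rik-202 stood at 4.94 FPKM in CIA and 0.00190 FPKM in healthy. 0610039K10Rik-201 stood at 0.700 FPKM in CIA and 5.36 FPKM in healthy. The isoforms are 952 and 951 bases long and differ by the 1 base in capitals above, so the 87.6 points moved between annotations that are otherwise the same RNA. In 3 of the 199 genes the compared isoforms differed by fewer than 50 bases in all: 0610039K10Rik, Phxr4 (15 bases) and 4632427E13Rik (21 bases). For these, the split of a level into isoforms rests on those few bases. More widely, in 22 of the 199 pairs 1 isoform had fewer than 50 bases that the other lacked, and 9 of these genes had another leading isoform. Among the 22, Tug1-203, Gm43813-201 and Gm10561-202 had 0 such bases, Gm45890-203 had 35 and Tmem134-208 had 45.

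The 12 genes with a changed leading isoform and the most share moved included Dubr and 0610039K10Rik. Gm10640, antisense to Gramd1a, moved by 100 points: Gm10640-201 stood at 0.853 FPKM in CIA and was listed at 0 in healthy, and Gm10640-202 was listed at 0 in CIA and stood at 0.582 FPKM in healthy. Gm10561, antisense to Rftn2, moved by 97.8 points with a sum of 0.529 FPKM in CIA and 0.530 FPKM in healthy. Gm45890 was the most highly expressed of the 12 in healthy: its sum was 3.28 FPKM in CIA and 8.25 FPKM in healthy. Gm45890-202 was listed at 0 in CIA and stood at 7.72 FPKM in healthy, and Gm45890-203 stood at 2.35 FPKM in CIA and was listed at 0 in healthy. This gene overlaps exons of the coding genes Abcb10 and Nup133 on the opposite strand. No strand setting is given for the libraries, so reads of either strand cannot be told apart there. The same limit holds for Tug1, Gt(ROSA)26Sor, A530040E14Rik and 0610039K10Rik, which also overlap coding exons on the opposite strand. Of the 12 genes, it holds as well for Gm10640, Gm10561, C920021L13Rik, Trmt61b and 1810021B22Rik. Other genes described below have such overlaps too, for example 4930538E20Rik, BE692007, Gm48678, Zfas1 and A330023F24Rik. Coding exons on either strand overlapped 99 of the 199 genes.

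Of the rest of the 12, only 4933404O12Rik, an intergenic lncRNA, had a mean sum above 2 FPKM. It had a sum of 2.02 FPKM in CIA and 6.27 FPKM in healthy. Its long 4933404O12Rik-201 (3967 bases) stood at 0.0829 FPKM in CIA and 5.19 FPKM in healthy, and its short 4933404O12Rik-203 (617 bases) at 1.70 FPKM and 1.05 FPKM. Sums were under 1 FPKM in 8430429K09Rik (0.800 FPKM in CIA and 0.975 FPKM in healthy, 92.3 points moved) and in Trmt61b (0.874 FPKM and 0.522 FPKM, 80.3 points), where Trmt61b-202 held 100% in healthy and 19.7% in CIA. C920021L13Rik moved by 83.7 points, or by 52.3 points with its assembled isoform counted, which then led in healthy, and 1810021B22Rik moved by 78.7 points. The share moved was 71.9 points for 2210408F21Rik, whose lead passed from the 7-exon 2210408F21Rik-201 in healthy to 2210408F21Rik-203 from a different start in CIA. It was 70.5 points for 2810030D12Rik, where the 1-exon 2810030D12Rik-203 led in healthy (0.599 FPKM, 0.163 FPKM in CIA) and the spliced 2810030D12Rik-204 in CIA (0.925 FPKM, 0.101 FPKM in healthy).

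**Figure D3:**
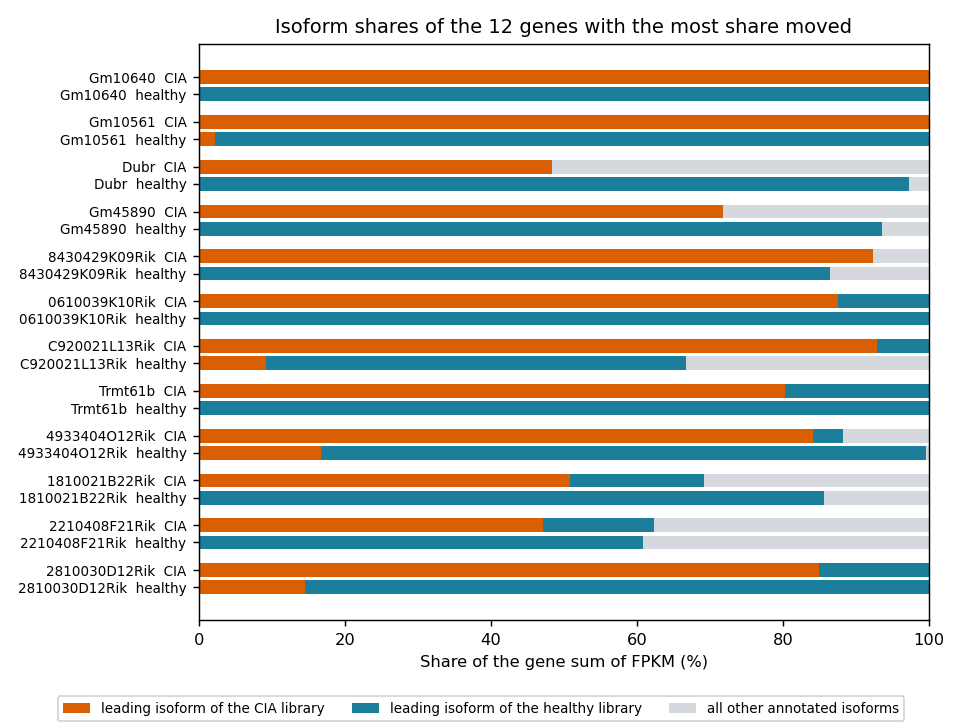
Stacked bars give, for the 12 genes with a changed leading isoform and the most share moved, the share (%) of the gene sum of FPKM held in each library by the leading isoform of the CIA library, that of the healthy library, and all other annotated isoforms. In Gm10640 the bars exchange colour completely, and in Dubr 48.4% of the CIA sum and none of the healthy sum is Dubr-202.

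The share moved was larger where a gene was less abundant. All 9 genes with a mean sum under 1 FPKM had another leading isoform in CIA, and their median share moved was 70.5 points. The median was 20.5 points for 52 genes of 1 to 2 FPKM, 16.3 for 83 genes of 2 to 5 FPKM, 12.6 for 33 genes of 5 to 10 FPKM, and 7.16 for 22 genes of 10 FPKM or more. The threshold can be met by a different isoform in each library, and at low sums more readily so, which means that this order is not independent of the rule. Across the 199 genes the Spearman rho of share moved with the mean sum was -0.30, as a description of points that share both libraries. In the 55 genes with a mean sum of at least 5 FPKM, a subset taken after seeing the data, the leading isoform differed in 19 and at least 20 points moved in 18. Just inside the threshold, the second isoform of Gm44899 reached 0.50041 FPKM and that of F730043M19Rik 0.510 FPKM, and just outside it that of Gm13919 reached 0.49979 FPKM and that of Gm13832 0.498 FPKM.

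**Figure D4:**
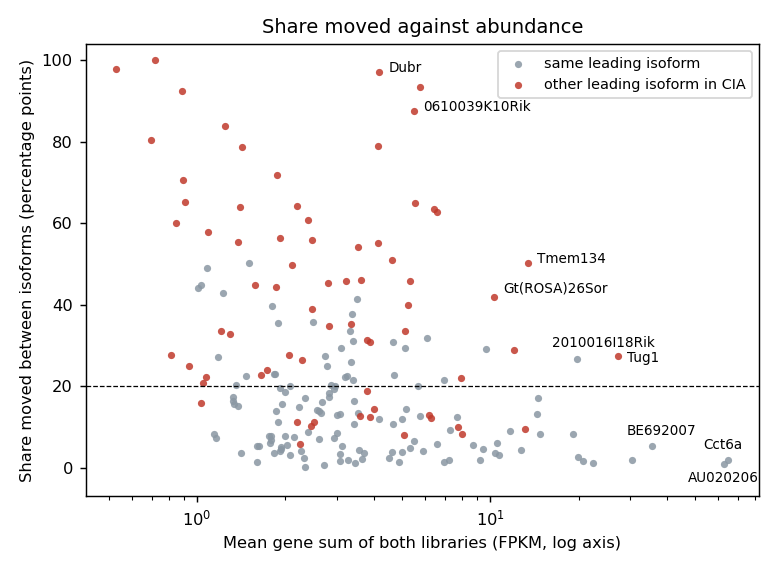
Each point is 1 of the 199 genes, with the mean gene sum of both libraries (FPKM, log axis) against the share moved between isoforms (percentage points), coloured by whether the leading isoform differed; the dashed line marks 20 points. Shares moved above 60 points lie at mean sums under 10 FPKM, whereas Tmem134, Gt(ROSA)26Sor and Tug1 combine more than 10 FPKM with 50.2, 42.0 and 27.3 points.

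Among abundant genes, Tmem134, named for a transmembrane protein but listed here with non-coding isoforms, had 7 isoforms past the threshold and 50.2 points moved at nearly equal sums, 13.0 FPKM in CIA and 13.9 FPKM in healthy. Tmem134-215 stood at 0.820 FPKM in CIA and 7.74 FPKM in healthy. Tmem134-208 stood at 3.28 FPKM in CIA and 0.993 FPKM in healthy, and Tmem134-209 at 2.70 FPKM and 0.602 FPKM. The other 4 isoforms past the threshold lay between 0.366 and 1.74 FPKM in both libraries. The CIA sum was thus spread over several isoforms, with Tmem134-208 leading at 25.3%, whereas Tmem134-215 made up 55.7% of the healthy sum. In the authors' deposited table, Tmem134-215 had a ratio of 0.106, p = 3.78e-06 and q = 0.000367, from a test the sources used here do not name. With 1 library per group, the deposited p and q values, here and below, hold no variation between samples of a group. An assembled isoform at the Tmem134 locus is not part of these shares, and adding it left the change of lead in place.

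1110038B12Rik, which hosts the small nucleolar RNA Snord52, also had 7 isoforms past the threshold, a sum of 9.20 FPKM in CIA and 14.8 FPKM in healthy, and 28.8 points moved. The 5-exon 1110038B12Rik-201, in which Snord52 is intronic, stood at 1.62 FPKM in CIA and 5.73 FPKM in healthy. 1110038B12Rik-207, a retained-intron form whose exon contains Snord52, stood at 2.75 FPKM in CIA and 2.62 FPKM in healthy and led in CIA. The change of lead was thus a difference in the spliced isoform, while the retained form differed little in level. In 2010016I18Rik, with 5 isoforms past the threshold, the sum was 23.3 FPKM in CIA and 16.2 FPKM in healthy, and 2010016I18Rik-202 led in both. Its 2010016I18Rik-201 stood at 1.12 FPKM in CIA and 4.56 FPKM in healthy, and 2010016I18Rik-204 at 4.08 FPKM in CIA and at 0 in healthy.

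The 19 genes with another leading isoform at a mean sum of at least 5 FPKM also included A730036I17Rik, A530040E14Rik and Gm43813. These were named after their values were seen, and not all of the 19 are described. A730036I17Rik-201, of 3431 bases, stood at 0.815 FPKM in CIA and 5.51 FPKM in healthy, and A730036I17Rik-202, of 346 bases and 4.5% shared bases with it, at 3.63 FPKM and 1.11 FPKM. A530040E14Rik-203 stood at 0.751 FPKM in CIA and 7.12 FPKM in healthy, and A530040E14Rik-205, which ends within 7 bases of it but starts 5866 bases upstream, at 2.74 FPKM and 1.36 FPKM. Gm43813 held equal sums (6.64 FPKM in CIA and 6.57 FPKM in healthy), with the spliced Gm43813-201 listed at 0 in CIA and at 4.12 FPKM in healthy. By fragments, A730036I17Rik-201 led in both libraries (69.0% in CIA and 98.0% in healthy), as did Gm43813-202 (100% and 58.3%). Of these 3 genes only A530040E14Rik thus kept its exchange. All exonic bases of A530040E14Rik-203 also lie in A530040E14Rik-205, so the split between them rests on few distinct features. In the authors' deposited table the ratio was 0.106 for A530040E14Rik-203 (p = 4.38e-06, q = 0.000413) and 0.148 for A730036I17Rik-201 (p = 4.59e-05, q = 0.00286).

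Some of the most abundant genes had nearly the same composition in both libraries. Cct6a, named for a chaperonin subunit, had a sum of 54.5 FPKM in CIA and 75.2 FPKM in healthy with 1.84 points moved. Its Cct6a-201 made up 35.4% of the sum in both libraries, followed by the retained-intron forms Cct6a-205 (31.5% in CIA and 31.4% in healthy) and Cct6a-207 (28.0% and 29.7%). AU020206, an intergenic lncRNA of chromosome 7, held 62.3 FPKM in CIA and 63.5 FPKM in healthy, of which the 1-exon AU020206-202 was 99.4% and 98.6%. BE692007, antisense to Ms4a6c, held 41.3 FPKM in CIA and 29.9 FPKM in healthy and moved by 5.35 points. Gm48678, antisense to Itsn2, held 25.5 FPKM and 19.4 FPKM and moved by 1.20 points.

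The composition was also similar in a gene whose level differed. The sum of 4930538E20Rik, antisense to Bcl11a, a transcription factor gene of lymphocyte and erythroid development, was 9.35 FPKM in CIA and 4.58 FPKM in healthy, with 1.39 points moved. Its 4930538E20Rik-201 made up 53.3% in CIA and 54.7% in healthy. The gene overlaps an exon of Bcl11a, where reads of either strand cannot be told apart. In these libraries of a mixed tissue, fewer cells of a type and less RNA per cell cannot be told apart.

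Other members were hosts of miRNAs, named here because of the RNA they host. The mature sequences are from RefSeq (GRCm38.p6), with the seed, bases 2 to 8, in capitals. miR-181a-5p and miR-181b-5p share 1 seed, and miR-29b-3p and miR-29c-3p share another.
mmu-miR-223-3p: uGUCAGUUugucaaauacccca
mmu-miR-181a-5p: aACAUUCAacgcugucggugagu
mmu-miR-181b-5p: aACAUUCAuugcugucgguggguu
mmu-miR-29b-3p: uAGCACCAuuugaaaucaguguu
mmu-miR-29c-3p: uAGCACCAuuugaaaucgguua

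F630028O10Rik holds Mir223, a miRNA gene of granulocytes and monocytes (chrX:96242817-96242926, plus strand), in an exon of both of its isoforms. Its sum was 15.8 FPKM in CIA and 25.5 FPKM in healthy, and 1.53 points moved, so that both isoforms differed in the same direction by a like ratio. F630028O10Rik-202 stood at 11.7 FPKM in CIA and 19.3 FPKM in healthy, and F630028O10Rik-201 at 4.11 FPKM and 6.23 FPKM. Gm4258 holds Mir181a-1 and Mir181b-1, miRNA genes that tune antigen receptor signalling in lymphocytes, in an intron of Gm4258-201 and outside Gm4258-202. It had the reverse order of levels, with a sum of 3.64 FPKM in CIA and 1.77 FPKM in healthy, and 0.518 points moved among annotated isoforms, or 13.1 points with an assembled isoform counted. Gm4258-201 stood at 1.60 FPKM in CIA and 0.787 FPKM in healthy.

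In A330023F24Rik, Mir29b-2 and Mir29c lie in an exon of A330023F24Rik-204 and outside the other isoforms. That isoform stood at 0.702 FPKM in CIA and 0.158 FPKM in healthy. The leading A330023F24Rik-203, which does not reach the miRNAs, stood at 3.09 FPKM and 1.95 FPKM, and 12.8 points moved among annotated isoforms. Assembled isoforms of this locus are not part of these shares, the highest at 3.02 FPKM in CIA and 1.82 FPKM in healthy. With them counted, 11.6 points moved. Whether they contain the miRNAs was not tested. In Ftx, a lncRNA of the X-inactivation centre, Mir374b and Mir421 are intronic in each isoform past the threshold, and the sum was 7.39 FPKM in CIA and 5.75 FPKM in healthy with 5.78 points moved. 2900076A07Rik holds Mir1839 in an exon of 2900076A07Rik-201 (2.48 FPKM in CIA and 2.23 FPKM in healthy). An assembled isoform also stood at 3.60 FPKM in CIA and 2.94 FPKM in healthy for Ftx, and at 4.27 FPKM and 2.81 FPKM for 2900076A07Rik. None of the 5 miRNA hosts had another leading isoform in CIA. The levels of the mature miRNAs were not measured here.

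1700020I14Rik, known as Cyrano, carries a site of extensive pairing to miR-7 and is known to promote the decay of that miRNA. The site was found in 1700020I14Rik-202 only (chr2:119602136-119602163, plus strand), where 20 of the 23 bases of miR-7a-5p pair. It is printed with the match to the seed in capitals, beside the miRNA with its seed in capitals.
1700020I14Rik-202: aacaacaaaatcaccaatGTCTTCCatt
mmu-miR-7a-5p: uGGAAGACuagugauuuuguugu

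1700020I14Rik-202, the 8300-base isoform with that site, stood at 26.8 FPKM in CIA and 29.6 FPKM in healthy. The 1381-base 1700020I14Rik-201, which ends before the site, stood at 2.39 FPKM and 1.997 FPKM. The site-bearing isoform thus made up 91.8% of the sum in CIA and 93.7% in healthy. A second match to the seed (GTCTTCC, searched on the transcript strand), where 10 bases pair by the same count, lies in both isoforms.

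A list of 55 lncRNA genes with a described role held 17 of the 199 genes. Of these, 5 had another leading isoform in CIA, 7 moved by at least 20 points, 2 (Carmn and Dubr) had a sum at least 2-fold higher in CIA and 1 (Ttc39aos1) at least 2-fold lower, without centring. These shares of the list were 29.4%, 41.2%, 11.8% and 5.88%, beside 35.7%, 45.2%, 14.6% and 4.02% of all 199 genes. Their median share moved was 12.8 points, beside 17.2 for all 199 genes, and their median log2 ratio of sums was 0.04, beside 0.24. The 5 with another leading isoform were Dubr, Tug1, Pvt1, Jpx and Lockd. The 17 include Cct6a and Ptprv, which are named for proteins and listed here as non-coding, and for which no role of the RNA is given here.

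**Figure D5:**
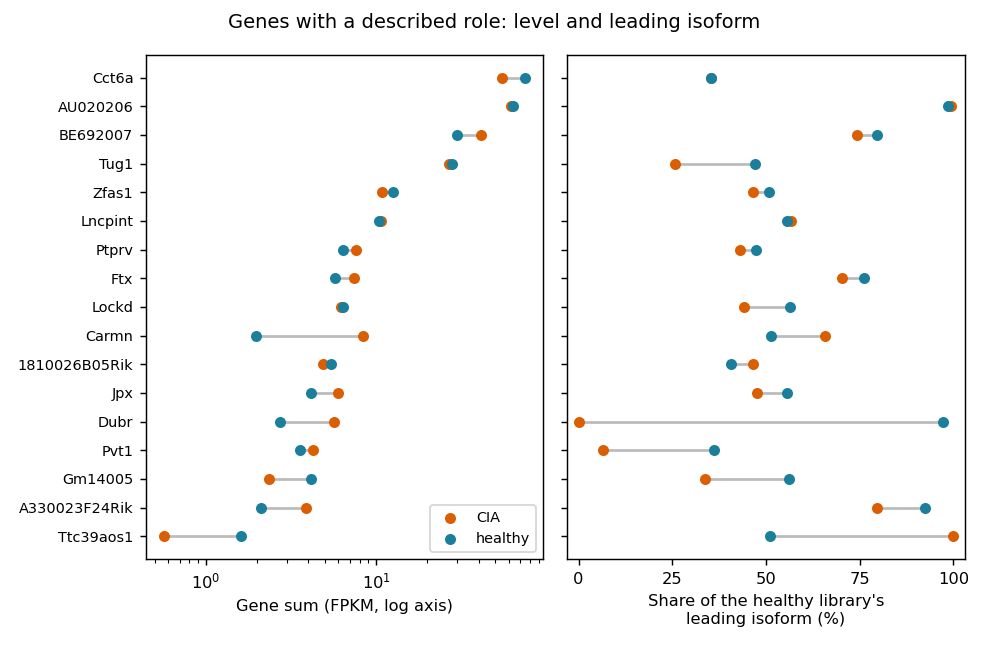
For the 17 genes of the described-role list, the left panel gives the gene sum (FPKM, log axis) and the right panel the share (%) of the healthy library's leading isoform, in CIA and in healthy. Carmn has the widest gap in level (8.34 and 1.97 FPKM) and Dubr the widest gap in share (0.0639% and 97.3%).

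Pvt1, the lncRNA gene next to Myc, had a sum of 4.23 FPKM in CIA and 3.56 FPKM in healthy. Pvt1-201 stood at 0.278 FPKM in CIA and 1.29 FPKM in healthy, and Pvt1-210 at 1.83 FPKM and 1.08 FPKM. An assembled isoform of this locus stood at 3.32 FPKM in CIA and 2.38 FPKM in healthy, above each annotated isoform, and with the assembled isoforms counted the lead did not differ between the libraries. Pvt1 is also 1 of the 2 members within 50 kb of a gene on the list of cell cycle genes (47.6 kb from Myc). The other, 5830432E09Rik, lies 37.5 kb from Mki67. It exchanged its lead by FPKM, but not by fragments, with 12.5 points moved at a sum of 3.996 FPKM in CIA and 3.77 FPKM in healthy. No member lay within 50 kb of a list of 36 lymphocyte genes (such as Cd3e and Bcl6) or of 24 myeloid and erythroid genes (such as Mpo, Csf1r and Gata1). These lists leave out other genes of such cells: among members picked out afterwards, A430093F15Rik lay 1945 bases from Cd5, F930017D23Rik 9132 bases from Cd24a, and R74862, D630008O14Rik and 4930538E20Rik overlapped Cd81, Bcl2 and Bcl11a.

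Jpx, an activator of Xist, had 6.003 FPKM in CIA and 4.16 FPKM in healthy, and its lead passed between Jpx-201 and the 1-exon Jpx-204 with 8.09 points moved. Lockd, a lncRNA next to Cdkn1b that is transcribed in erythroid cells, had 6.22 FPKM in CIA and 6.36 FPKM in healthy, with Lockd-204 at 45.4% and Lockd-201 at 44.1% in CIA. In CIA the first and second isoforms of both genes lay within 5 points of each other, and by fragments neither gene changed its leading isoform.

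1810026B05Rik, known as Chaserr, lies upstream of Chd2 and limits its expression. At least 1 of its annotated isoforms overlaps an exon of Chd2 on the same strand, so reads of the 2 genes cannot be told apart there. The sum of 1810026B05Rik was 4.86 FPKM in CIA and 5.41 FPKM in healthy, and 1810026B05Rik-204 led in both. The 1-exon 1810026B05Rik-207, which shares no exonic base with 1810026B05Rik-204, stood at 0.519 FPKM in CIA and 2.17 FPKM in healthy. By fragments it led in healthy with 70.0%, and 1810026B05Rik-203 led in CIA with 31.4%. The authors' deposited table gave 1810026B05Rik-207 a ratio of 0.240, p = 0.00167 and q = 0.0478. Zfas1, which hosts Snord12 and related small nucleolar RNAs, had 10.8 FPKM in CIA and 12.5 FPKM in healthy with 8.86 points moved among annotated isoforms and 26.3 points with the assembled one. An assembled isoform of Zfas1 stood at 1.55 FPKM in CIA and 7.42 FPKM in healthy, where it was the highest of the locus. Lncpint, a p53-induced lncRNA, had 10.7 FPKM and 10.4 FPKM with 6.04 points moved.

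Of the list members tied to immune or stromal cells, Gm14005, known as Morrbid and a regulator of the lifespan of myeloid cells through Bcl2l11, had 2.33 FPKM in CIA and 4.13 FPKM in healthy. Its Gm14005-204 stood at 0.789 FPKM and 2.32 FPKM. Ttc39aos1, known as lincRNA-EPS and a restraint on immune genes in macrophages, had 0.568 FPKM in CIA and 1.60 FPKM in healthy. Ttc39aos1-202 was listed at 0 in CIA and stood at 0.782 FPKM in healthy. Carmn, a lncRNA of smooth muscle, had 8.34 FPKM in CIA and 1.97 FPKM in healthy. Both of its isoforms were higher in CIA, Carmn-201 at 5.49 FPKM against 1.01 FPKM and Carmn-202 at 2.85 FPKM against 0.960 FPKM, and the lead was the same.

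The level of the whole gene was compared on the scale of log2((CIA + 0.1)/(healthy + 0.1)) of the FPKM sums, which understates the ratios of low genes. By this measure 29 of the 199 genes were at least 2-fold higher in CIA and 8 at least 2-fold lower, beside 13.9% and 4.19% of all 2718 lncRNA genes with at least 0.5 FPKM in an isoform. The median was 0.24 for the 199 genes and 0.30 for the 2718. When centred on the median of all annotated transcripts past the threshold (0.30), the split was 9 higher and 15 lower, so the excess of higher genes depended on the scaling. Of the 71 genes with another leading isoform, 50 had sums within 2-fold, and of the 128 others, 112 had.

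The highest log2 ratios of sums were those of Gm13563 (2.54), Carmn (2.02), 4933412E12Rik (1.92) and 4930426D05Rik (1.73). The sum of Gm13563 was 2.43 FPKM in CIA and 0.335 FPKM in healthy, but an assembled isoform at its locus was listed at 0 in CIA and stood at 2.58 FPKM in healthy. With it, the log2 ratio of Gm13563 was -0.25 and 88.5 points moved, against 55.4 without it. An assembled isoform likewise turned 4933412E12Rik (2.10 FPKM in CIA and 0.481 FPKM in healthy) to -0.47, with 83.6 points moved, against 32.8 without it. The ratios of Carmn and of 4930426D05Rik (4.33 FPKM in CIA and 1.24 FPKM in healthy) had no assembled isoform to add.

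The lowest ratios were those of F930017D23Rik (-1.90), 9330104G04Rik (-1.85), 4933404O12Rik (-1.59) and Phxr4 (-1.41). F930017D23Rik had 2.19 FPKM in CIA and 8.47 FPKM in healthy in its annotated isoforms, and 13.4 FPKM and 19.4 FPKM with the assembled ones, for a log2 ratio of -0.54. Phxr4 turned from -1.41 to 0.26 when its assembled isoform, 12.7 FPKM in CIA and 7.18 FPKM in healthy, was added. The low 9330104G04Rik (0.311 FPKM in CIA and 1.39 FPKM in healthy) and 4933404O12Rik had none. Of these 8 extreme genes, 4 thus moved by more than 1.5 times in ratio, or in direction, with the assembled isoforms, and 4 had none to add.

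Isoform by isoform, 106 of the 483 past the threshold were at least 2-fold higher in CIA and 62 at least 2-fold lower, beside 15.7% and 6.13% of all 3068 annotated transcripts past it. Centred on the same median, 80 were higher and 80 lower. Of the 106, 30 were listed at 0 in healthy, and of the 62, 18 were listed at 0 in CIA. In 30 genes, 1 isoform was at least 2-fold higher and another at least 2-fold lower, and 26 of these had sums within 2-fold. With a pseudocount of 1 FPKM, 9 genes had such isoforms. The rule of the set asks for 2 isoforms past the threshold, and no share over all genes was computed beside this count. 2900052N01Rik, an intergenic lncRNA named after its values were seen, was 1 of the 30 genes. Its sum was 7.01 FPKM in CIA and 5.19 FPKM in healthy. 2900052N01Rik-201 stood at 2.24 FPKM in CIA and at 0 in healthy, whereas 2900052N01Rik-203 stood at 0.0387 FPKM and 1.54 FPKM. The authors' deposited table marked 35 of the 483 isoforms, 20 higher and 15 lower, in 30 genes, beside 4.89% higher and 1.47% lower of the 3068. The mark is not a cut at p below 0.05, since it includes isoforms above that value. The authors' deposited table gave 17 of the 483 p below 0.05 and 7 q below 0.05, beside 1.92% and 0.391% of the 3068, and nothing is read from these shares, since the same contrast chose the genes.

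The structure of the compared isoforms, which are the leaders of both libraries or, where the leader was the same, the 2 highest isoforms, was read from GENCODE M21. The median pair shared 12.1% of its joint exonic bases, 17.98% in the 71 genes with another leading isoform and 11.3% in the 128 others. Starts lay within 50 bases of each other in 23 of the 71 and 57 of the 128. Ends did in 10 of the 71 and 12 of the 128. A whole intron of 1 isoform lay in an exon of the other in 6 of the 71 and 15 of the 128. Most pairs thus differed at their 3′ end in both classes, and 18 of the 199 pairs shared no exonic base at all.

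The CIA leader was the longer isoform in 43 of the 71 genes and the shorter in 28. It had more exons in 27, fewer in 23 and the same number in 21. Across all 199 genes, the share of the longest isoform past the threshold was higher in CIA in 93 and lower in 106. The median difference of that share was -1.53 points. Both retained-intron and other isoforms were past the threshold in 39 genes, and the retained-intron share was higher in CIA in 18 and lower in 21, with a median difference of -0.13 points. Both 1-exon and spliced isoforms were past it in 47 genes, with a higher 1-exon share in CIA in 23 and a lower one in 24. Neither class moved in 1 direction across the genes. An exon of a protein-coding gene overlapped the isoforms in 39 of the 71 genes and 60 of the 128.

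Assembled isoforms at 35 of the 199 loci were not among the annotated ones. With them counted, 73 genes had another leading isoform in CIA, of which 68 were among the 71. An assembled isoform led in at least 1 library in 21 genes.

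Of the marker lncRNAs examined, Mir142hg, a haematopoietic host gene, was listed at 0 in CIA and stood at 14.3 FPKM in healthy. Whether reads of this locus were assigned to another transcript in CIA was not tested. The erythroid Bloodlinc stood at 1.55 FPKM and 1.11 FPKM, the Th1 and NK marker Ifngas1 at 0.614 FPKM and 0.0437 FPKM, and the regulatory T cell marker Flicr at 0.455 FPKM and 0.536 FPKM. Mir155hg stood at 0.245 FPKM and 0.240 FPKM, the stromal Meg3 at 0.443 FPKM and 0.390 FPKM and H19 at 0.317 FPKM and 0.151 FPKM. Their part in the isoform shares was not tested, and coding markers of spleen cells were not analysed here.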

How the data were processed

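RNA-seq of 2 libraries, CIA and healthy, 1 per group, was analysed without a paper. The authors deposited FPKM per transcript, per the file headers, with 0.0001 for 0, which was read as 0. The submitters' processing notes name StringTie. The aligner, genome build, strandedness and statistical test were not given in the sources used here. Their table also holds a ratio (fold), its log2, a p-value and a q-value per transcript, deposited by the authors and quoted as such. Columns named model and control were taken as CIA and healthy. Each of the 15172 annotated transcripts matched GENCODE M21 (GRCm38) in position, and 15123 also in spliced length. In 2 damaged cells of the CIA column, neither of a gene described here, values were placed by the deposited ratio.

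From these, shares, sums and log2 ratios (pseudocount 0.1 FPKM) were computed with Python 3.11.15, pandas 2.3.3, numpy 2.4.6 and scipy 1.17.1, and checked on simulated swaps of isoforms. With 1 library per group no test was made, and 2-fold and 20-point size rules were used. The depth is unknown, as FPKM keeps no counts, so no interval can be given.

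Genes were named by rule: the 12 changed genes with the most share moved, the 6 highest sums, the 4 with the most isoforms, the 4 highest and 4 lowest log2 ratios, the 4 with the least share moved at 5 FPKM or more, members of the gene lists, and the 2 just inside and 2 just outside the threshold. Others are said to be named otherwise. The members, the lists and the rules were chosen with earlier results of these data known. Other thresholds, pseudocounts, centring, share measures and the addition of assembled isoforms were tried as alternatives.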

Additional observations from a re-analysis of the deposited data

How the results depend on the processing

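At an isoform threshold of 0.25 FPKM, 304 genes met the rule, 107 with another leading isoform, 149 with at least 20 points moved and 13 at least 2-fold lower by sum, with 172 isoforms higher and 105 lower. At 1 FPKM, 110 genes met it, 45 with another leading isoform and 49 with at least 20 points moved, with 17 higher and 4 lower by sum and 47 isoforms higher and 33 lower. These counts follow the number of genes admitted. A pseudocount of 1 FPKM left 6 genes higher and 5 lower by sum, 29 isoforms higher and 26 lower, and 9 genes with isoforms in opposite directions. Centring on the median transcript gave 9 genes higher and 15 lower. Requiring a lead of 10 points in both libraries left 40 genes with another leading isoform. For the share moved, a limit of 30 points in place of 20 left 59 genes. With a mean sum of at least 5 FPKM, added after seeing the data, 19 had another leading isoform and 18 had at least 20 points moved, of fewer genes by construction. The other 18 recomputed counts stayed within 1.5 times of the reported counts, among them 54 changed leads by fragments (40 of them among the 71), 73 with assembled isoforms added and 70 without the pairs that differ by fewer than 50 bases. No paired analysis was possible because there was a single library per group. With the depth unknown, how far levels near 0.5 FPKM are set by few reads was not tested.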
